A study of Mus musculus with 4 samples.

Results

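Small nucleolar ribonucleoproteins (snoRNPs) are the particles that modify ribosomal RNA, and the 10 genes described here encode their proteins and the ATPases that help assemble them. They were chosen by name from the 24411 gene rows of the count tables. The genes Fbl, Nop56 and Nop58 belong to the box C/D particles, Dkc1, Nop10, Nhp2, Gar1 and Naf1 to the H/ACA particles, and Ruvbl1 and Ruvbl2 to the assembly machinery that serves both. They were read in single haematopoietic stem cells (HSC) of mouse bone marrow, 44 and 48 cells in 2 libraries of the Mat KO genotype and 48 cells in each of 2 libraries of the wild-type (WT) genotype, with no treatment named. The study's title places the work at the imprinted Dlk1-Gtl2 locus, whose maternal copy makes long noncoding RNAs that carry many snoRNAs. The labels give neither the deleted bases, the age of the animals nor the surface markers of the sort. They also leave out how many animals each library pooled, so the spread behind every p-value is that of these libraries and may be technical.

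In a box C/D particle a snoRNA base-pairs with ribosomal RNA and fibrillarin, the methyltransferase encoded by Fbl, methylates the ribose of a nucleotide at a fixed distance from the D box. Nop56 and Nop58 are paired scaffold proteins that hold the snoRNA and fibrillarin. In an H/ACA particle dyskerin, the pseudouridine synthase encoded by Dkc1, turns a uridine into pseudouridine, with Nop10, Nhp2 and Gar1 as its partners, and the same proteins bind telomerase RNA. Naf1 accompanies the immature particle and is exchanged for Gar1. Ruvbl1 and Ruvbl2 are AAA+ ATPases that act with the chaperone HSP90 in the R2TP complex and also sit in chromatin remodelling complexes. Mutations of DKC1, NOP10 and NHP2 in people cause dyskeratosis congenita, a disease with bone marrow failure.

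Some guide RNAs are encoded inside genes of the members. In the GENCODE M21 annotation of GRCm38, the assembly that mm10 names, Nop56 (chr2:130274430-130279313, plus strand) contained 5 annotated snoRNA genes and Nop58 (chr1:59684971-59719044, plus strand) contained 4. Dkc1 (chrX:75095854-75109777, plus strand) contained 1, and the other 7 members contained 0. The sequences below show the difference between the particle types that the proteins serve. Snord110, in an intron of Nop56 (chr2:130275506-130275573), and Snord11, in an intron of Nop58 (chr1:59704790-59704873), have the C box TGATGA near the 5′ end and the D box CTGA near the 3′ end, in capitals. Gm24451, an annotated snoRNA inside Nop56 (chr2:130276237-130276369) that overlaps an annotated exon, lacks that layout and has ACA followed by 3 bases at its 3′ end, in capitals. All are given 5′ to 3′ on the plus strand.
Snord110: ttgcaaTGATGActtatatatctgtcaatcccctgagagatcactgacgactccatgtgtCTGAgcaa
Snord11: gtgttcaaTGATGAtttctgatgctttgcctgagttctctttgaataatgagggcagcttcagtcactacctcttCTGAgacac
Gm24451: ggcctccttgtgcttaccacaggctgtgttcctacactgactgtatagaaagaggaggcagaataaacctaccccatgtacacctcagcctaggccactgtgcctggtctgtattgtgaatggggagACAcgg

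Mature snoRNAs carry no poly(A) tail and are poorly primed by oligo-dT. Of the 4 hosted snoRNAs with a row in the files, Snord110 had 1 UMI (unique molecular identifier), Snord11 and Snord70 had 0 UMIs and Snord57 had 26 UMIs over the 188 kept cells. Snord57 overlaps an annotated exon of Nop56, so its UMIs cannot be told apart from Nop56 mRNA. The values that follow are levels of the protein mRNAs, and the guide RNAs were not compared.

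Cells with at least 1000 detected genes were kept. Mat KO libraries held 1900319 and 1768647 UMIs against 3183279 and 3253608 in the WT libraries (replicate 1 before replicate 2, here and below). Gene UMIs per spike-in UMI were 0.960 and 0.881 in Mat KO against 1.19 and 1.39 in WT. All 15 listed HSC genes, among them Procr, Hlf and Mecom, had UMIs in every library. Cells that carried transcripts of other lineages (at least 4 markers and 1% of UMIs) numbered 12 and 4 in Mat KO against 3 and 5 in WT, and held 26.5% and 12.9% of UMIs against 3.63% and 11.9%. The remaining 32 and 44 Mat KO cells and 45 and 43 WT cells are called lineage-low, and results are given with and without this restriction. S phase markers held 0.154% and 0.133% of UMIs in Mat KO against 0.206% and 0.297% in WT, and 13 of the 23 were lower in both Mat KO libraries than in both WT libraries, with none at 0. Levels below are CPM, the UMIs of a gene per 1000000 gene UMIs of the summed cells, and a sum cannot tell fewer expressing cells from less RNA per cell.

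All 10 members were detected in every library. A UMI marks the 3′ end of an mRNA, so CPM was compared between genes without a length term. Nop58 was the most abundant, with a mean of 511 ± 60.4 CPM (SD over the 4 libraries), followed by Nop10 at 295 ± 82.7, Nop56 at 248 ± 60.2, Fbl at 163 ± 19.9, Dkc1 at 162 ± 73.6 and Nhp2 at 147 ± 58.2. Ruvbl1 averaged 113 ± 53.4 CPM, Ruvbl2 74.9 ± 30.4, Naf1 41.3 ± 2.72 and Gar1 28.6 ± 7.26. The ranges over libraries of neighbours in this order did not overlap for Nop58 above Nop10, for Nop56 above Fbl, for Ruvbl2 above Naf1 and for Naf1 above Gar1. Every other pair of neighbours overlapped. Within the box C/D genes Nop58 held 54.8% and 59.1% of the UMIs in Mat KO against 56.4% and 52.3% in WT, and within the H/ACA genes Nop10 held 41.0% and 48.7% against 46.6% and 40.7%.

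**Figure D1:**
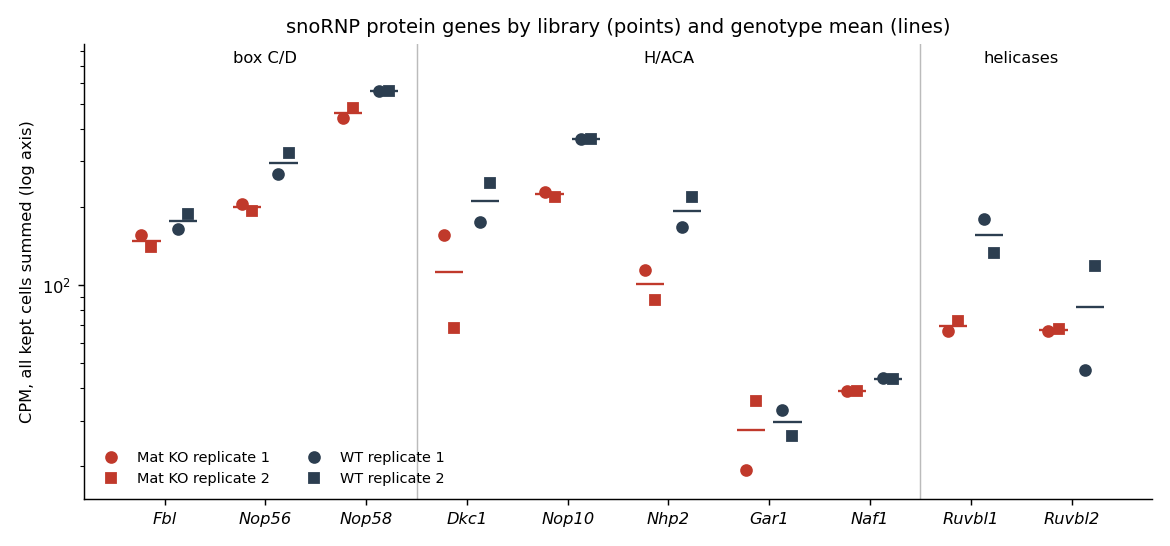
CPM of each member in the 4 libraries on a log axis (Mat KO red, WT dark, circles replicate 1, squares replicate 2), with lines at the genotype means. The Mat KO libraries lie under the WT libraries for 8 members, while Gar1 and Ruvbl2 overlap.

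The question the design puts to these genes is whether they differ between Mat KO and WT cells. No member passed edgeR's quasi-likelihood test after Benjamini-Hochberg adjustment over 10663 genes, where 0.0750% of genes passed, and DESeq2 also called 0 members. All 10 fitted fold changes were below 0, as were those of 50.6% of all genes tested. In 8 of the 10 members both Mat KO libraries lay under both WT libraries, which 21.3% of all genes tested also did. Unadjusted p was under 0.05 for Dkc1, Nop10, Nhp2 and Ruvbl1, 4 of 10 members, against 3.32% of all genes in that direction. The median log2 fold change was -0.40 over the members and -0.01 over all genes. In lineage-low cells 7 members had both Mat KO libraries under both WT libraries (background 20.8%), 3 had an unadjusted p under 0.05 (background 3.33%), 0 passed after adjustment with either direction counted (background 0.0870%), and the median was -0.29.

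Box C/D methylation genes were lower in Mat KO by small amounts. Fbl, the methyltransferase (chr7:28169710-28179269), stood at 156 and 141 CPM in the Mat KO libraries against 165 and 188 CPM in the WT libraries. The libraries did not overlap, although the gap between the nearest ones was smaller than the spread within WT. The edgeR fit gave -0.22 on the log2 scale (SE 0.29, n = 2 libraries each) at an adjusted p of 0.913. Nop56, a scaffold protein, stood at 206 and 193 CPM in the Mat KO libraries against 269 and 324 CPM in the WT libraries, with both Mat KO libraries low. Its log2 fold change of -0.54 (SE 0.26, edgeR adjusted p = 0.680) was further from 0 than those of Fbl and Nop58 over all kept cells. Nop58, the other scaffold protein, stood at 440 and 483 CPM in the Mat KO libraries against 562 and 561 CPM in the WT libraries. The WT libraries were nearly equal and both above Mat KO, with a log2 fold change of -0.25 (SE 0.23, edgeR adjusted p = 0.846). In lineage-low cells the log2 fold changes were -0.27 (SE 0.30) for Fbl, -0.32 (SE 0.25) for Nop56 and -0.06 (SE 0.20) for Nop58. The 3 genes summed to 802 and 817 CPM in Mat KO against 996 and 1073 CPM in WT, and to 917 and 871 CPM against 1016 and 1021 CPM in lineage-low cells. Nop56 overlaps the opposite-strand gene Idh3b by 5 bases at its 3′ end, and the sources used here do not say whether counting used the strand. Idh3b was at -0.50 on the log2 scale (SE 0.42, edgeR adjusted p = 0.827), the same direction as Nop56, and reads in the overlap cannot be told apart.

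Among the H/ACA genes over all kept cells, the synthase and its core partners Nop10 and Nhp2 were lower in Mat KO. The exchange pair Gar1 and Naf1 lay closer to WT there, but this order did not hold in all alternatives. After thinning, the log2 fold changes of Gar1 (-0.41) and Naf1 (-0.43) were further from 0 than that of Dkc1 (-0.37). Without Mat KO replicate 2, Gar1 was at -0.59 against -0.43 for Dkc1. The difference between these subgroups was not tested. Dkc1, the pseudouridine synthase, stood at 156 and 68.4 CPM in the Mat KO libraries against 176 and 247 CPM in the WT libraries. Mat KO replicate 2 was far under the other libraries, and replicate 1 lay just under WT replicate 1. The edgeR fit gave a log2 fold change of -0.89 (SE 0.39) at an adjusted p of 0.624. Without Mat KO replicate 2 it was -0.43 and without Mat KO replicate 1 it was -1.59, fits in which the lone Mat KO library is assumed to vary like the WT libraries. Nop10, the smallest core subunit (chr2:112261926-112263269), stood at 229 and 219 CPM in the Mat KO libraries against 367 and 367 CPM in the WT libraries. Replicates were close within each genotype, and the edgeR fit gave a log2 fold change of -0.68 (SE 0.25) at an adjusted p of 0.572. Nhp2, a core RNA-binding subunit (chr11:51619735-51623714), stood at 114 and 87.6 CPM in the Mat KO libraries against 167 and 219 CPM in the WT libraries. Every Mat KO value was under every WT value, with a log2 fold change of -0.91 (SE 0.32, edgeR adjusted p = 0.543).

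Gar1, the subunit that completes the mature particle (chr3:129824912-129831396, minus strand), stood at 19.5 and 35.6 CPM in the Mat KO libraries against 33.0 and 26.1 CPM in the WT libraries. The genotypes overlapped, and 37, 63, 105 and 85 UMIs in the 4 libraries gave a wide error (edgeR log2 fold change -0.07 with SE 0.63, adjusted p = 0.991). Naf1, the factor of the immature particle (chr8:66860217-66890564), stood at 38.9 and 39.0 CPM in the Mat KO libraries against 44.0 and 43.3 CPM in the WT libraries. The libraries did not overlap but the log2 fold change was small against its error, at -0.13 (SE 0.49, adjusted p = 0.977 by edgeR). In lineage-low cells the log2 fold changes of Gar1 and Naf1 stood at 0.36 (SE 0.68) and 0.09 (SE 0.52). Those of Dkc1, Nop10 and Nhp2 were -0.77 (SE 0.35), -0.37 (SE 0.24) and -0.74 (SE 0.32) there. Dkc1 and Nhp2 overlap the opposite-strand genes Mpp1 by 45 bases and Rmnd5b by 44 bases at their 3′ ends. Mpp1 and Rmnd5b had log2 fold changes of 0.54 and 0.34 (adjusted p = 0.818 and 0.931 by edgeR), in the other direction from Dkc1 and Nhp2, and here too reads in the overlaps cannot be told apart.

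Dkc1 lies on the X chromosome, and every library mixed cells with Xist, the RNA of the inactive X, and cells with Y-linked transcripts. In cells with Xist and no Y-linked UMI (10 and 15 Mat KO cells, 13 and 15 WT cells) Dkc1 stood at 94.8 and 67.0 CPM in the Mat KO libraries against 229 and 322 CPM in the WT libraries. In cells with a Y-linked UMI and no Xist (19 and 10 Mat KO cells, 15 and 11 WT cells) it had 208 and 50.7 CPM against 203 and 289 CPM. The genotypes did not overlap in the cells with Xist and overlapped in the cells with Y-linked transcripts. Fbl, Nop56 and Nhp2, on other chromosomes, showed the same pattern. For Nhp2 the Mat KO levels with Xist were 112 and 45.4 CPM, below the WT levels of 217 and 243 CPM. With Y-linked transcripts they were 121 and 157 CPM, and WT levels were 150 and 112 CPM. Nop10 and Ruvbl1 did not overlap in either set, and Nop58, Gar1, Naf1 and Ruvbl2 overlapped in the cells with Xist. The share of all genes without overlap between the genotypes was not computed for either set of cells. Whether the genotype difference itself differs between these cells was not tested.

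Ruvbl1 was lower in both Mat KO libraries and Ruvbl2 overlapped between the genotypes, and the difference between the 2 ATPase genes was not tested. Ruvbl1 (chr6:88465409-88497572) stood at 66.8 and 72.9 CPM in the Mat KO libraries against 180 and 132 CPM in the WT libraries. Mat KO replicates were close and under both WT libraries, with a fitted value of -1.13 on the log2 scale (SE 0.34, edgeR adjusted p = 0.450). Over all kept cells this was the furthest from 0 of the 10 members, but this order did not hold in all alternatives. After thinning Nhp2 was further, at -0.72 against -0.66 for Ruvbl1, and so it was with cells weighted equally, at -0.97 against -0.74. Dkc1 was the further one in several alternatives, for example without Mat KO replicate 1, at -1.59 against -1.06. A single cell held 22.9% of the Ruvbl1 UMIs of WT replicate 1. With the highest cell of each gene left out of each library, the log2 fold change of Ruvbl1 was -1.004 (SE 0.34). Ruvbl2 (chr7:45421760-45438096, minus strand) stood at 66.3 and 67.8 CPM in the Mat KO libraries against 47.1 and 118 CPM in the WT libraries. The WT libraries lay on either side of Mat KO, with a log2 fold change of -0.27 (SE 0.47, edgeR adjusted p = 0.936) that was 0.54 without WT replicate 2. Ruvbl1 made up 50.2% and 51.8% of the summed UMIs of both genes in Mat KO, against 79.2% and 52.8% in WT. Ruvbl2 overlaps the opposite-strand gene Lhb by 138 bases at its 3′ end, and Lhb had 0 UMIs.

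**Figure D2:**
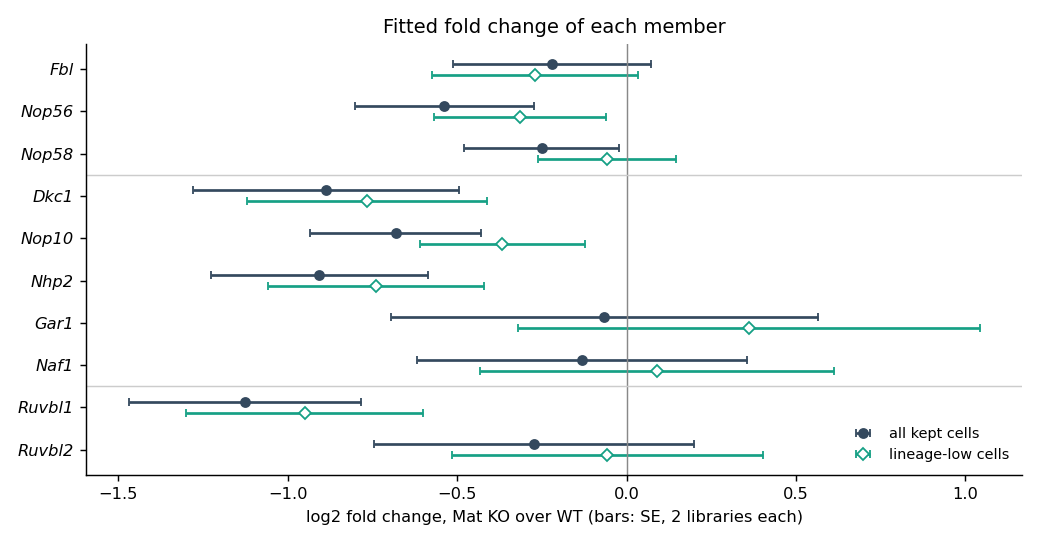
Fitted log2 fold change of each member, Mat KO over WT, with SE bars (2 libraries each), for all kept cells (filled) and lineage-low cells (open). Ruvbl1, Nhp2, Dkc1 and Nop10 stand furthest below 0 over all kept cells, and the bars of Fbl, Gar1, Naf1 and Ruvbl2 cross 0 there.

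Methylation and pseudouridylation genes were then compared within each library, which takes the depth of the library out of the value. The H/ACA genes summed to 558 and 449 CPM in Mat KO against 787 and 903 CPM in WT, a log2 ratio of genotype means of -0.75, and the box C/D genes gave -0.35. The ratio of box C/D to H/ACA UMIs was 1.44 and 1.82 in Mat KO against 1.27 and 1.19 in WT. Both Mat KO libraries were above both WT libraries, and the difference on the log2 scale was 0.41, where the SD between replicates was 0.17. Without Mat KO replicate 2 it was 0.23. In lineage-low cells the ratio was 1.37 and 1.72 in Mat KO against 1.25 and 1.20 in WT, and at equal depth per cell it was 1.39 and 1.87 against 1.32 and 1.12. Mat KO stayed above WT without overlap in 9 of 11 sets of cells. The exceptions were the non-cycling cells and the lineage-low cells with the marker limit at 0.5%. These sets were drawn from the same libraries and share cells, so they are not independent results. How often ratios of other genes separate in this way was not computed. The helicase genes summed to 133 and 141 CPM in Mat KO against 227 and 251 CPM in WT, and to 143 and 153 CPM against 235 and 226 CPM in lineage-low cells. Since the members of each sum were given, these sums carry no p-value.

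**Figure D3:**
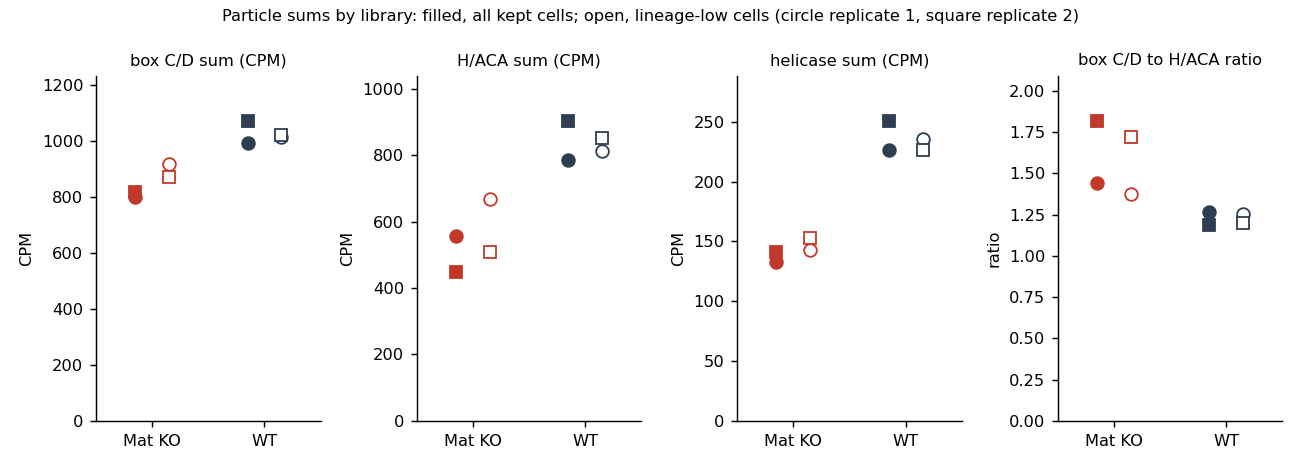
Summed CPM of the box C/D, H/ACA and helicase genes and the ratio of box C/D to H/ACA, by library, over all kept cells (filled) and lineage-low cells (open). The box C/D, H/ACA and helicase sums of Mat KO are under those of WT. Over all kept cells the ratio in Mat KO, at 1.44 and 1.82, is above the 1.27 and 1.19 of WT.

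Medians over single cells were compared next. In lineage-low cells the median box C/D sum per cell was 765 and 824 CPM in Mat KO against 755 and 834 CPM in WT, and the genotypes overlapped. The median H/ACA sum per cell was 526 and 445 CPM in Mat KO against 699 and 686 CPM in WT, and they did not. Cells varied widely within a library, with quartiles of 226 and 641 CPM for H/ACA in Mat KO replicate 1 and of 434 and 981 CPM in WT replicate 1. No H/ACA UMI was seen in 1 and 2 of the lineage-low Mat KO cells and in 1 and 1 of the WT cells.

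**Figure D4:**
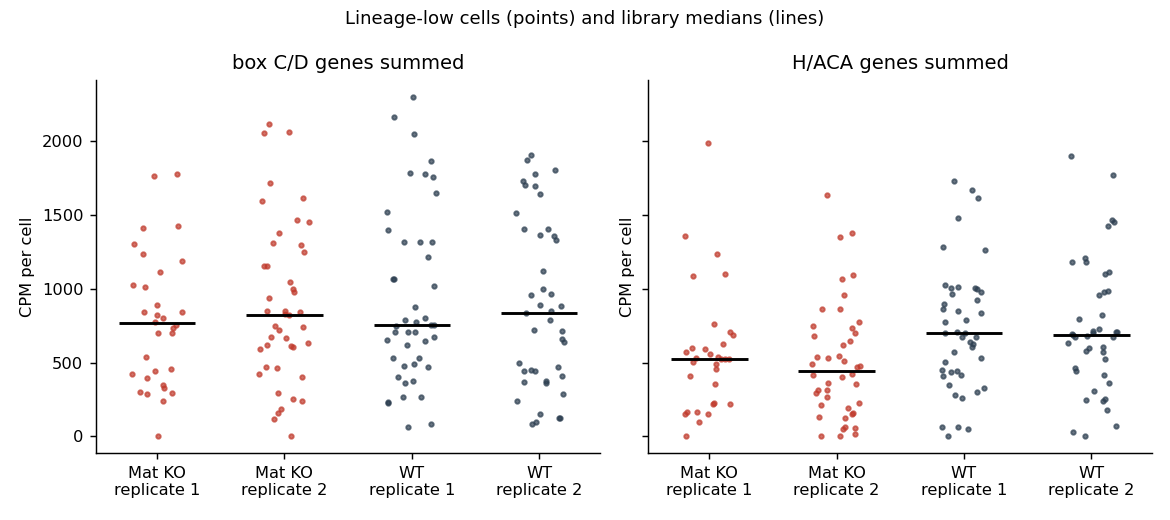
Summed CPM per lineage-low cell (points) of the box C/D and the H/ACA genes in each library, with library medians (lines). Box C/D medians lie between 755 and 834 CPM in all 4 libraries, and H/ACA medians are 526 and 445 CPM in Mat KO against 699 and 686 CPM in WT.

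Shares of cells with a UMI were compared after each cell was thinned to 8877 UMIs, which kept 38 and 41 Mat KO cells and 46 and 44 WT cells. Nhp2 was found in 34.2% and 26.8% of thinned Mat KO cells (exact 95% intervals 19.6% to 51.4% and 14.2% to 42.9%) against 43.5% and 54.5% of WT cells (28.9% to 58.9% and 38.8% to 69.6%). Nop10 was found in 73.7% and 56.1% of Mat KO cells (56.9% to 86.6% and 39.7% to 71.5%) against 82.6% and 88.6% of WT cells (68.6% to 92.2% and 75.4% to 96.2%). Dkc1 was found in 39.5% and 39.0% of Mat KO cells (24.0% to 56.6% and 24.2% to 55.5%) against 47.8% and 68.2% of WT cells (32.9% to 63.1% and 52.4% to 81.4%). Both Mat KO shares were below both WT shares for each of these genes. The intervals of Mat KO replicate 2 and WT replicate 2 did not overlap for Nop10, and in these 3 genes every other pair of a Mat KO and a WT library had overlapping intervals. Before thinning, 45.5% and 41.7% of Mat KO cells had Nhp2 against 60.4% and 72.9% of WT cells, 79.5% and 81.2% had Nop10 against 93.8% and 91.7%, and 50.0% and 41.7% had Dkc1 against 75.0% and 79.2%. Nop58 was found in 73.7% and 85.4% of thinned Mat KO cells (56.9% to 86.6% and 70.8% to 94.4%) against 87.0% and 86.4% of WT cells (73.7% to 95.1% and 72.6% to 94.8%), and Fbl in 52.6% and 56.1% (35.8% to 69.0% and 39.7% to 71.5%) against 58.7% and 54.5% (43.2% to 73.0% and 38.8% to 69.6%). Unthinned shares were 88.6% and 93.8% against 87.5% and 93.8% for Nop58, and 65.9% and 68.8% against 79.2% and 75.0% for Fbl. Ruvbl1 was found in 31.6% and 43.9% of thinned cells in Mat KO libraries against 45.7% and 47.7% in WT libraries. Before thinning it was found in 50.0% and 54.2% against 75.0% and 70.8%. For Nop58 and Ruvbl1 too, both thinned Mat KO shares were below both WT shares, while those of Fbl overlapped. The share of all genes with both Mat KO shares below both WT shares was not computed. Over the 4 libraries, Gar1 was seen in 12.2% to 18.4% of thinned cells and 18.2% to 41.7% of unthinned cells, Naf1 in 19.5% to 26.3% and 27.1% to 47.9%, and Nop56 and Ruvbl2 in 53.7% to 79.5% and 24.4% to 50.0% of thinned cells. The genotypes overlapped in the thinned shares of these 4 genes. Nearly every cell type uses these genes, so barcodes without a kept cell served as the background, and any member was seen in 2 of 52 and 1 of 48 of them in Mat KO libraries and in 3 of 48 and 2 of 48 in the WT libraries. Intervals cover counting error only. A median of 4 and 4 members was detected per thinned Mat KO cell against 5 and 6 per WT cell.

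Cells with markers of other lineages were also read for the members. Granulocyte or monocyte marker cells (10 and 3 in Mat KO, 2 and 3 in WT) had a summed level of all members of 825 and 416 CPM in Mat KO against 660 and 2056 CPM in WT, and lineage-low cells stood at 1728 and 1531 CPM in the Mat KO libraries against 2063 and 2098 CPM in the WT libraries. The 2 erythroid marker cells, both in WT replicate 2, had 4022 CPM. The granulocyte and monocyte markers held 3.72% and 0.655% of UMIs in Mat KO against 0.737% and 0.370% in WT, and 10 of the 19 were higher in both Mat KO libraries, with none at 0. The share of all genes higher in both Mat KO libraries was not computed. In lineage-low cells these markers held 0.323% and 0.113% against 0.132% and 0.153%, with Csf1r, Elane and Ctsg at 0. Fewer of the 19 were higher in both Mat KO libraries there than over all kept cells. The H/ACA sum of lineage-low cells was 668 and 507 CPM in Mat KO against 812 and 850 CPM in WT.

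Cell cycle marker levels also differed between the libraries. Lineage-low cells above the median share of S phase and G2/M markers (median taken over all kept cells) numbered 12 and 13 in Mat KO against 25 and 28 in WT. In these cells the H/ACA sum was 864 and 545 CPM in Mat KO against 824 and 1051 CPM in WT, and the box C/D sum was 1129 and 857 CPM against 1060 and 1195 CPM. In the 20 and 31 Mat KO and 20 and 15 WT cells at or below the median, called non-cycling here, the H/ACA sum was 488 and 482 CPM against 791 and 376 CPM, and the box C/D sum was 723 and 880 CPM against 941 and 610 CPM. The genotypes overlapped on either side of the median for both particles. WT replicate 2 had the widest gap, with H/ACA at 376 CPM in non-cycling cells and 1051 CPM above the median. Ruvbl1 in non-cycling cells was 94.8 and 49.2 CPM in Mat KO against 266 and 82.1 CPM in WT, which also overlap. Lineage-low cells were split instead by depth within each library, which does not match depth between the genotypes. Median UMIs per shallower cell were 23010 and 15461 in Mat KO against 19812 and 22818.5 in WT. Per deeper cell they were 55640.5 and 50247 in Mat KO against 96254.5 and 86387 in WT. The H/ACA sum was 450.4 and 511 CPM in the shallower Mat KO cells against 758 and 739 CPM in the shallower WT cells. It was 739 and 506 CPM in the deeper Mat KO cells against 825 and 878 CPM in the deeper WT cells. The box C/D sum was 718 and 788 CPM in Mat KO against 865 and 911 CPM in WT in the shallower cells. In the deeper cells it was 983 and 894 CPM against 1052 and 1048 CPM. The helicase sum was 166 and 158 CPM against 183 and 212 CPM in the shallower cells. In the deeper cells it was 135 and 152 CPM against 248 and 230 CPM. No sum overlapped between the genotypes in either part.

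**Figure D5:**
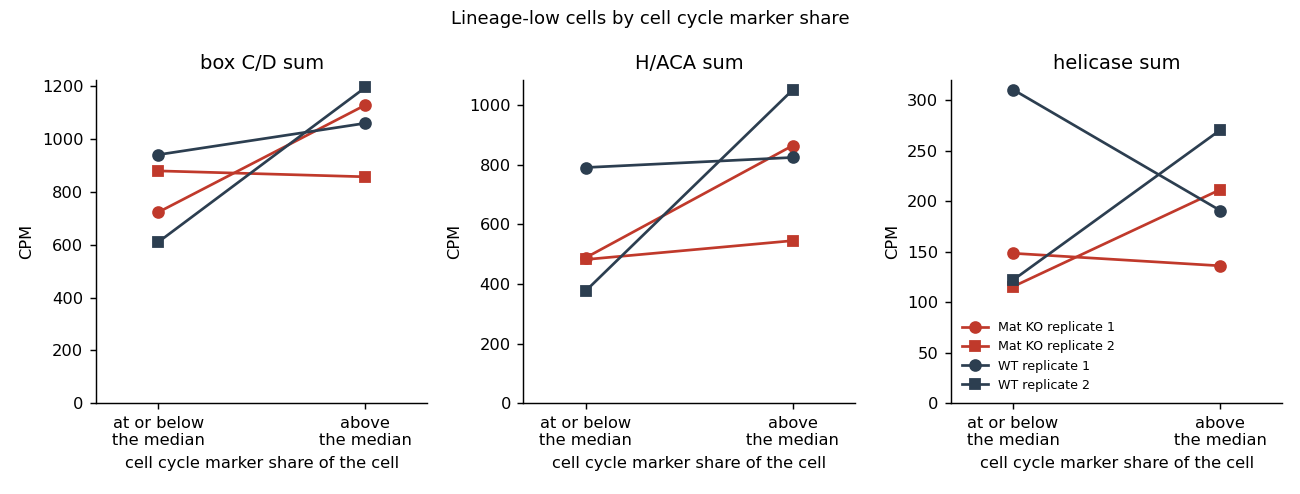
Summed CPM of the box C/D, H/ACA and helicase genes in lineage-low cells at or below and above the median cell cycle marker share, joined by library (Mat KO red, WT dark). Genotypes overlap on both sides, and H/ACA in WT replicate 2 is 376 CPM at or below the median and 1051 CPM above it.

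Box C/D and H/ACA levels varied together across single cells. Over 149 thinned lineage-low cells, centred within library, the box C/D and H/ACA sums had a Spearman rho of 0.44, and within Mat KO libraries it was 0.49 and 0.32, and within WT libraries 0.36 and 0.59. Pairs of single members had a median rho of 0.15 within box C/D, 0.11 within H/ACA and 0.14 between them, on counts far sparser than those of the sums. The helicase sum had a rho of 0.07 with box C/D and 0.11 with H/ACA. The rho with S phase markers was 0.32 for box C/D and 0.17 for H/ACA, and the rho with G2/M markers had the other order, at 0.12 for box C/D and 0.24 for H/ACA. These cells share library, capture and depth, and the values are descriptions.

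Of 3249 other genes seen in at least 25% of those cells, the ones most like the box C/D sum were Gnl3, a nucleolar GTPase (rho 0.46), Ncl, the nucleolar protein nucleolin (0.45), Mcm4, a subunit of the replicative helicase (0.42), Mif, a cytokine gene (0.42), and Ybx1, an RNA-binding protein gene (0.40). Those most like the H/ACA sum were the translation initiation gene Eif2s2 (0.38), the maintenance DNA methyltransferase gene Dnmt1 (0.36), the glutathione peroxidase gene Gpx4 (0.33), Mif (0.33) and the tubulin gene Tuba1c (0.33). The 95th percentile over all these genes was 0.19 for each sum. The lists share 1 gene, Mif.

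Other genes of the pathway were described by lists. Of 18 tested snoRNP and assembly factor genes outside the 10 members, 14 were lower in Mat KO and 4 higher (Nhp2l1, Rpap3, Taf9 and 1810043G02Rik), none passed the edgeR test, none had an unadjusted p under 0.05 and the median log2 fold change was -0.34 (-0.17 in lineage-low cells, where 12 of 17 were lower). Npm1, the nucleolar protein nucleophosmin, stood at 1464 and 1503 CPM in the Mat KO libraries against 1871 and 2024 CPM in the WT libraries, with an edgeR fold change of -0.36 on the log2 scale (SE 0.17, adjusted p = 0.669). Ncl had 1843 and 1537 CPM against 1943 and 2392 CPM (-0.33, SE 0.18, adjusted p = 0.720 by edgeR). Nhp2l1, named Snu13 in newer annotation, is the box C/D core protein that first binds the snoRNA. It stood at 317 and 248 CPM in the Mat KO libraries against 260 and 295 CPM in the WT libraries, which overlap (0.06, SE 0.26, adjusted p = 0.984 by edgeR). Its difference from Fbl, Nop56 and Nop58 was not tested.

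Of 14 tested stand-alone rRNA modification enzymes 10 were lower and 4 higher (Dimt1, Nsun5, Rrp8 and Thumpd1), with a median of -0.41 (-0.19 in lineage-low cells) and none past the test or at an unadjusted p under 0.05. The methyltransferase gene Zcchc4 stood at 11.6 and 3.39 CPM in the Mat KO libraries against 40.5 and 11.1 CPM in the WT libraries, with an edgeR fold change of -1.75 on the log2 scale (SE 0.96, adjusted p = 0.716), and the acetyltransferase gene Nat10 had 34.7 and 23.7 CPM against 44.0 and 61.5 CPM (-0.82, SE 0.52, adjusted p = 0.752 by edgeR).

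The partners of the ATPases were counted by complex. Of 14 tested R2TP and HSP90 partners 12 were lower and 2 higher (Rpap3, also in the list of assembly factors, and Uxt). Their median was -0.48 (-0.32 in lineage-low cells). Against a background of 3.32% of all genes tested, 1 of the 14 was lower with an unadjusted edgeR p under 0.05. That gene was Hsp90aa1, a cytosolic HSP90 gene that also flanks the imprinted locus, with 1329 and 1173 CPM in Mat KO against 2153 and 2241 CPM in WT (edgeR log2 fold change -0.78 with SE 0.18, adjusted p = 0.208). Hsp90ab1, the other cytosolic HSP90 gene, had 2870 and 3171 CPM against 3923 and 3710 CPM (-0.30, SE 0.15, adjusted p = 0.669 by edgeR). Of 29 tested subunits of the INO80, SRCAP and TIP60 remodelling complexes, which also hold these ATPases, 18 were higher and 11 lower, with a median of 0.22 and none past the test. Ing3 and Epc2, both TIP60 subunits, had an unadjusted p under 0.05 in the upward direction, 2 of 29 subunits where 4.50% of all genes tested did, a share near that background. Ing3 stood at 106 and 110.3 CPM in the Mat KO libraries against 51.2 and 54.7 CPM in the WT libraries, with an edgeR fold change of 1.06 on the log2 scale (SE 0.37, adjusted p = 0.540), and Epc2 had 73.1 and 146 CPM against 63.5 and 35.7 CPM (1.18, SE 0.47, adjusted p = 0.588 by edgeR).

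Of 14 tested genes of telomerase RNA maturation and telomere protection, 7 were higher and 7 lower, with a median of -0.02 and none past the test. In lineage-low cells 8 of 13 were higher, with a median of 0.13. The shelterin genes Acd (0.83, SE 0.54) and Tinf2 (1.45, SE 0.97) had the smallest p, at adjusted p = 0.761 and 0.767 by edgeR. In lineage-low cells Acd was at 1.31 (SE 0.58, edgeR adjusted p = 0.641), the 1 gene of 13 with an unadjusted p under 0.05 in the upward direction there (background 3.86%), and Tinf2 at 1.25 (SE 1.02). Of 11 tested genes of the MYC network, which includes known regulators of snoRNP genes, 7 were higher and 4 lower (Myc, Mycn, Mga and Mlxip), with a median of 0.47 (0.27 in lineage-low cells) and none past the test. Mxd1, a repressor that shares its partner with MYC, had a log2 fold change of 1.35 (SE 0.44, edgeR adjusted p = 0.497), and 0.27 (SE 0.50) in lineage-low cells. Mga, another factor of the network, stood at -0.56 (SE 0.30, adjusted p = 0.701 by edgeR). The E box CACGTG, a palindrome that MYC family factors bind, was sought in promoters from 250 bases before to 50 after the start. It was present in 0 of the 8 member promoters that the RefSeq table for GRCm38.p6 holds (Fbl and Naf1 have no entry). Of all 32851 promoters of that length, 7.15% held it. So few member promoters cannot tell a share of 0 from that background.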

How the data were processed

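Single cells were lysed by hand and read with a modified STRT-seq method, per the labels' protocols: the oligo-dT primer adds a barcode for the cell and a UMI. The authors deposited UMI counts, raw whole numbers for every gene and barcode, with refGene symbols. TopHat2 2.0.12, HTSeq and the mm10 build are named in the submitters' processing notes without their roles, and the counting rule and its use of strand are not given in the sources used here. A file had 24506 rows, of which 95 were spike-in or marker sequences and stayed out of library sizes and tests. Each library used the same 96 barcode numbers, of which 44 held a kept cell in all 4. Cells were picked singly, so doublets were not searched for.

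Cells with at least 1000 detected genes (188) were summed per library. Sums were fitted with edgeR 4.0.16 in R 4.3.3 (TMM, filterByExpr, genotype alone) by its quasi-likelihood test, with Benjamini-Hochberg adjustment over all genes tested and a threshold of 0.05. Fold changes are Mat KO over WT, and an SE is a fold change over the root of its F value. Simulated data tested the fit. Thinning to 8877 UMIs, the 10th percentile, left out 19 cells. Alternatives were DESeq2 1.42.0, limma 3.58.1 for cells weighted equally, other scalings, filters and cell sets, each replicate left out and a replicate block. Sequences came from GENCODE M21 transcripts, and promoters from RefSeq. The planned comparison of member proteins was not run.

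The members and lists were chosen with earlier results of these data known. Named genes are all members, the 2 genes of smallest p in each list, Nhp2l1, the 5 genes most like each particle sum over cells, and genes that a count of 5 or fewer refers to.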

Additional observations from a re-analysis of the deposited data

Results flagged for a closer look

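Barcodes without a kept cell are not used in the comparisons. In Mat KO replicate 1 they held 5 UMIs of members, above the 3 counts that a count of 0 allows, against 1 in Mat KO replicate 2 and 3 in each WT library. These 5 UMIs were 2 of Dkc1 and 1 each of Nop56, Nop58 and Naf1, in 2 of 52 barcodes. All barcodes without a kept cell held 8911 UMIs of any gene in that library, against 769 in Mat KO replicate 2 and 1293 and 1164 in WT. The source of these UMIs was not tested. No group has the 4 libraries that a test for outlying samples needs.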

How the results depend on the processing

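No member passed the edgeR, DESeq2 or limma test under any of the 20 alternatives, limma being used with cells weighted equally. The lowest adjusted p of a member was 0.0627, for Ruvbl1 in the edgeR fit scaled by spike-ins. Fbl, Dkc1, Nop10 and Ruvbl1 were lower in Mat KO under all 20, and 180 of 200 member alternatives kept their direction. The alternatives refit counts of the same libraries, so they are not independent. The share of all genes that kept their direction was not computed. A fit with a replicate left out assumes that the lone library varies like the other genotype's. With 2 libraries a genotype, an exact permutation test cannot go below p = 0.333.

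The count of called genes was 8. It was 120 with DESeq2, 149 with no expression filter, 5 in cells with at least 2000 genes, 1 in lineage-low cells with the marker limit at 0.5%, 1 in Y-linked cells, 3 in non-cycling cells, 3 after thinning, 2 with cells weighted equally, and 17 to 123 with a replicate left out. It was 0 by edgeR in cells with Xist (430 at an unadjusted p under 0.05) and 0 without the leading cell of each gene (740). The replicate block called 109 genes and 0 members. Replicate numbers gave no sign of pairing, with the deviations of same-numbered libraries correlated at -0.0174 over genes. That value cannot show how the libraries were prepared.

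The members reversed as follows on the log2 scale. In non-cycling cells Nop56 was 0.10, Nop58 0.24, Gar1 0.037, Naf1 0.16 and Ruvbl2 0.52. In Y-linked cells Nhp2 was 0.034, Gar1 0.23, Naf1 0.43 and Ruvbl2 0.33. In lineage-low cells Gar1 was 0.36 and Naf1 0.090, with the limit at 0.5% Nop58 was 0.090 and Gar1 0.64, and with the limit at 2% Gar1 was 0.16 and Naf1 0.028. Gar1 was 1.23 in cells with Xist and 0.048 with cells weighted equally. With a replicate left out, Gar1 ran from -0.59 to 0.31 and Ruvbl2 from -0.80 to 0.54. The cause of these changes was not tested.

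The box C/D sum (-0.35) was -0.19, -0.15 and -0.20 in lineage-low cells with the limit as set, at 0.5% and at 2%, -0.70 in cells with Xist, -0.29 in Y-linked cells, 0.048 in non-cycling cells, -0.17 after thinning and -0.20 with cells weighted equally. The H/ACA sum (-0.75) was -0.50 and -0.49 in lineage-low cells as set and at 0.5%, -1.13 in cells with Xist and -0.27 in non-cycling cells. The helicase sum (-0.80) was -0.64 in lineage-low cells, -1.002 in cells with Xist, -0.17 in Y-linked cells, -0.71 in non-cycling cells, -0.52 after thinning and -0.57 with cells weighted equally. With a replicate left out these sums ran from -0.41 to -0.30, from -0.91 to -0.60 and from -0.87 to -0.73. Their ratio was above 0 under all 14 alternatives and ran from 0.23 to 0.57 with a replicate left out.

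A spike-in scale, chosen after seeing the data, shifted all genes by -0.49. It called 47 genes and gave -0.85, -1.23 and -1.30 for the box C/D, H/ACA and helicase sums, or -0.73, -1.03 and -1.18 in lineage-low cells. Depth limits Gar1 and Naf1 most, with 37 to 105 and 69 to 141 UMIs per library.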
